A study of Mus musculus with 12 samples.

Results

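The genes described here are those of the cytosolic ribosomal proteins, the protein part of the ribosomes that are pulled down in a RiboTag experiment. They were chosen by symbol alone: every listed gene named Rpl or Rps followed by a digit, together with Rplp0, Rplp1, Rplp2 and Rpsa, leaving out the S6 kinases (Rps6k) and pseudogene symbols. This gave 81 of the 14177 genes listed, 48 of the large and 32 of the small subunit, and Rps19bp1, which meets the rule but does not code for a ribosomal protein. All 81 are in the table of libraries with the Cre- label, and 55 are also in the table of those with the Cre+ label, which lists 9112 genes and none with fewer than 5 counts in any library. With the authors' mean FPKM above 1 (FPKM, fragments per kilobase of gene and per 1000000 mapped fragments), 55 were tested in libraries with the Cre+ label and 78 in those with the Cre- label. Rpl17, Rps13 and Rps27a fell below that level.

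The cultures were dissociated adult dorsal root ganglion (DRG) neurons, kept for 24 h, from male mice whose age the labels give as 3 to 6 months. All mice were homozygous for the Rpl22HA RiboTag allele, in which Cre recombinase switches the last exon of Rpl22 to a copy with a hemagglutinin (HA) tag. Mice with the Cre+ label also carried Runx3-Cre, and mice with the Cre- label carried the RiboTag allele with no Cre. In both, RNA was recovered by pull-down with an antibody to HA, and 10% of each lysate was set aside as input, with 3 libraries of each kind, 12 in all, and each sample pooled cells of 5 mice. Without Cre no HA-tagged Rpl22 is expected, so that by the labels a Cre- pull-down holds RNA recovered without the tag and serves as the background of the method. Runx3 is a transcription factor of proprioceptive neurons, and its promoter decides which cells carry the tag. Whole-gene counts of Rpl22 do not separate the tagged from the untagged transcript.

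The libraries held between 8886308 and 18633365 counts. All 11 pan-neuronal markers were listed in both tables, with summed normalized counts of 21119 to 55094 per 1000000 in the 12 libraries, against 4.85 to 119 for the macrophage markers, of which Aif1 and C1qa were listed in neither table. Runx3 had 22.8, 2.07 and 11.1 normalized counts in the pull-downs with the Cre+ label against 4.28, 2.39 and 5.55 in their inputs, a log2 fold change of 1.55 (standard error (SE) 0.87, FDR = 0.309, edgeR quasi-likelihood test). In the pull-downs with the Cre- label it had 20.8, 36.0 and 51.4 against 4.70, 1.90 and 2.88, a log2 fold change of 3.52 (SE 0.43, FDR = 0.000236, edgeR). The driver gene was thus called enriched in libraries with the Cre- label and not in those with the Cre+ label, which is not a test of the difference. Without Cre+ input replicate 1, the difference of both fold changes (Cre+ minus Cre-) was -1.90 and did not pass (SE 1.09, FDR = 0.436, edgeR). Each direction between genotypes below refers to the labels as deposited.

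Ribosomal proteins are made in the cytoplasm, imported into the nucleolus and built there with ribosomal RNA into the large subunit, which carries the peptidyl transferase centre, and the small subunit, which reads the mRNA. Their mRNAs are short, abundant and mostly begin with a terminal oligopyrimidine (TOP) tract, a cytosine at the cap followed by a run of pyrimidines. Through this tract the mTOR pathway and Larp1 control how much of the mRNA sits on ribosomes, and a large part of it can be held off polysomes in cells that are not growing. In axons of sensory neurons, ribosomal protein mRNAs are among the transcripts known to be localized.

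The sequences around the annotated start of transcription are shown because they place the start of these mRNAs beside the results. RefSeq windows on GRCm38 from 20 bases before to 10 bases after a start were found for 60 of the 81 genes, 71 windows in all, with 2 or 3 windows for each of 9 genes. A gene was counted where any of its windows held a pyrimidine run, defined as C followed by at least 6 bases that are C or T. This was so for 30 of the 60 members (50%), against 17.2% of 17492 protein-coding genes, and for 31 of the 71 windows (43.7%), against 14.9% of 21263. On the opposite strand, such a run was counted for 6 of the 60 members (10.0%), against 18.0% of the protein-coding genes. Capitals mark the run, on the strand of the gene and from 5′ to 3′. The first 4 windows belong to members called lower in the pull-downs with the Cre+ label (Rpl18, chr7:45718051-45718080, plus strand; Rplp2, chr7:141447631-141447660, plus; Rps15, chr10:80292411-80292440, plus; Rps9, chr7:3704021-3704050, plus). No window was found for Rpl32, which was also called lower there. Rpl4 (chr9:64173367-64173396, plus) was among the members with the highest levels. The windows of Rpl41 (chr10:128549159-128549188, minus) and Rpl22 (chr4:152324416-152324445, plus, the first of 2) held no such run, and both genes were called lower with the Cre- label.
Rpl18: acgagtgcgtctcgcaggccgCTCTTTCCC
Rplp2: cccactgcgtcagcgtCTTCCTTTCgccgc
Rps15: gCCCTCCCggcagagctcgcgataactgcg
Rps9: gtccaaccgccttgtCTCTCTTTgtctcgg
Rpl4: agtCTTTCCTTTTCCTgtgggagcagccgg
Rpl41: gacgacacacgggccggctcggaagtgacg
Rpl22: atcagcgctgcttctggaatgttccagctc
The runs of Rpl4, Rplp2 and Rps9 were 13, 9 and 8 bases long. Those of Rps15 and Rpl4 end before the annotated start. Whether a run goes with the fold change was not tested. A run in this window is a match of letters, and the position of the cap was not measured here.

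Ribosomal protein transcripts made up a small part of every library and a smaller part of the pull-downs. In the inputs with the Cre+ label they took 0.530%, 0.228% and 0.221% of all counts, and in the pull-downs 0.0796%, 0.109% and 0.113%. In the inputs with the Cre- label they took 0.285%, 0.228% and 0.239%, and in the pull-downs 0.125%, 0.107% and 0.113%. The highest pull-down of either genotype thus lay below the lowest input, and the pull-downs of both genotypes overlapped. Cre+ input replicate 1 stood apart. In that library all 55 members were higher than in the mean of the other 2 inputs, by a median of 1.32 on the log2 scale. Other genes with transcripts under 1000 bases (273 of them) were higher there by a median of 1.13, while the median over all 8947 genes was -0.01.

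**Figure D1:**
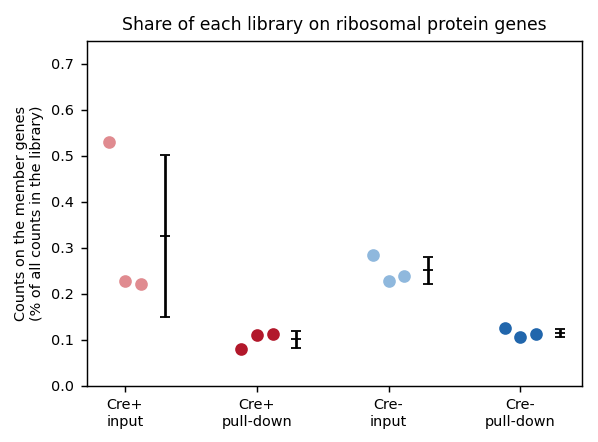
Share of all counts of a library that lies on the member genes, in percent, for the 3 libraries of each group (points) with the group mean and SD (bar at the right). The 6 pull-downs lie between 0.0796% and 0.125%, below all 6 inputs, and Cre+ input replicate 1 is the highest point at 0.530%.

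Under the Cre+ label, 5 of 55 members were called lower in the pull-down than in the input (FDR below 0.1 and a 2-fold change, edgeR quasi-likelihood test) and none higher. Over all 8947 genes tested, 2.19% were called lower and 4.72% higher. The 5 were Rplp2, Rps9, Rpl32, Rps15 and Rpl18. The members' median log2 fold change was -1.49, from -3.00 for Rplp2 to 0.67 for Rps12, beside 0.08 over all genes. The sign was negative in 53 of 55, beside 47% of all genes, and every pull-down lay below every input in 36 of 55, beside 17.9%. At an unadjusted p below 0.05, 30 members were lower, beside 9.55% of all genes, and none was higher, beside 14%. DESeq2 called 23 lower, beside 6.35% of all genes, and none higher, beside 12.3%.

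These calls stood close to the threshold, with FDRs from 0.0659 to 0.0999, and those of Rpl14, Rps25, Rpl41, Rps4x, Rplp0 and Rpl13a lay between 0.101 and 0.118 (edgeR). All 5 calls were lost without any 1 of the 3 Cre+ inputs and without Cre+ pull-down replicate 3. Without Cre+ input replicate 1 the median was -0.90 with 48 of 55 members negative, every pull-down lay below both inputs in 36 (20.9% of all genes), none was called and the lowest FDR was 0.252 for Rplp2. In that fit no gene at all was called lower and 7 were called higher. An unadjusted p below 0.05 was reached by 6 of the 55 members, beside 12.8% of all genes. With all 12 libraries in one fit, in which the spread is shared among the 4 groups, 35 of the 55 were called lower, beside 10.6% of 9006 genes.

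With the Cre- label, 24 of 78 members were called lower in the pull-down (FDR below 0.1 and a 2-fold change, edgeR), beside 5.83% of 11526 genes, and none was called higher, beside 6.01% (also none with DESeq2, beside 6.62%, and none at an unadjusted p below 0.05, beside 16.1%). With no limit on the fold, 37 were lower, beside 11.1%. The median was -0.99, from -2.41 for Rps23 to 0.35 for Rpl15, beside -0.04 over all genes. The sign was negative in 75 of 78, beside 52.5%, and every pull-down lay below every input in 60 of 78, beside 18.6%. In the 6 fits without 1 library, 13 of the 24 were called each time, among them Rpl22, Rps15, Rpl41, Rpl32 and Rplp1. The calls of Rpl13a, Rpl35, Rps14 and Rps2 were lost in 1 of these fits, those of Rps18, Rps9 and Rpsa in 2, and those of Rpl13, Rps20, Rps21 and Rps23 in 3. The count fell to 3 of the 55 members listed in both tables when all 12 libraries were fitted together, where 22 of those 55 were called within libraries with the Cre- label. Over all genes the 12-library fit called 1.92% lower.

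Both subunits had a negative median in both genotypes. It was -1.39 for 32 large and -1.65 for 23 small subunit genes in libraries with the Cre+ label, and -0.91 for 47 and -1.10 for 30 in those with the Cre- label. The medians with the Cre+ label were -0.92 and -0.90 without Cre+ input replicate 1. Leaving out Rps19bp1 gave a median of -0.99 in libraries with the Cre- label. Of the 55 members tested in both genotypes, 52 had a negative value in both, beside 30.2% of the 8830 genes tested in both. Every pull-down lay below every input in both genotypes for 34 members, beside 6.01%, and 4 were called lower in both (Rps15, Rps9, Rpl32 and Rpl18), beside 0.34%. Leaving out Cre+ input replicate 1 gave 48 negative in both (29.4% of all genes), 34 below in both (6.66%) and 0 called in both. The 4 calls were also lost without Cre+ input replicate 2 or 3 or Cre+ pull-down replicate 3. Under the Cre- label, members with a mean of at least 100 counts had a median of -0.98 (44 genes) and those under 100 counts a median of -1.0 (34 genes), where all genes of the same classes had 0.00 and -0.25.

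**Figure D2:**
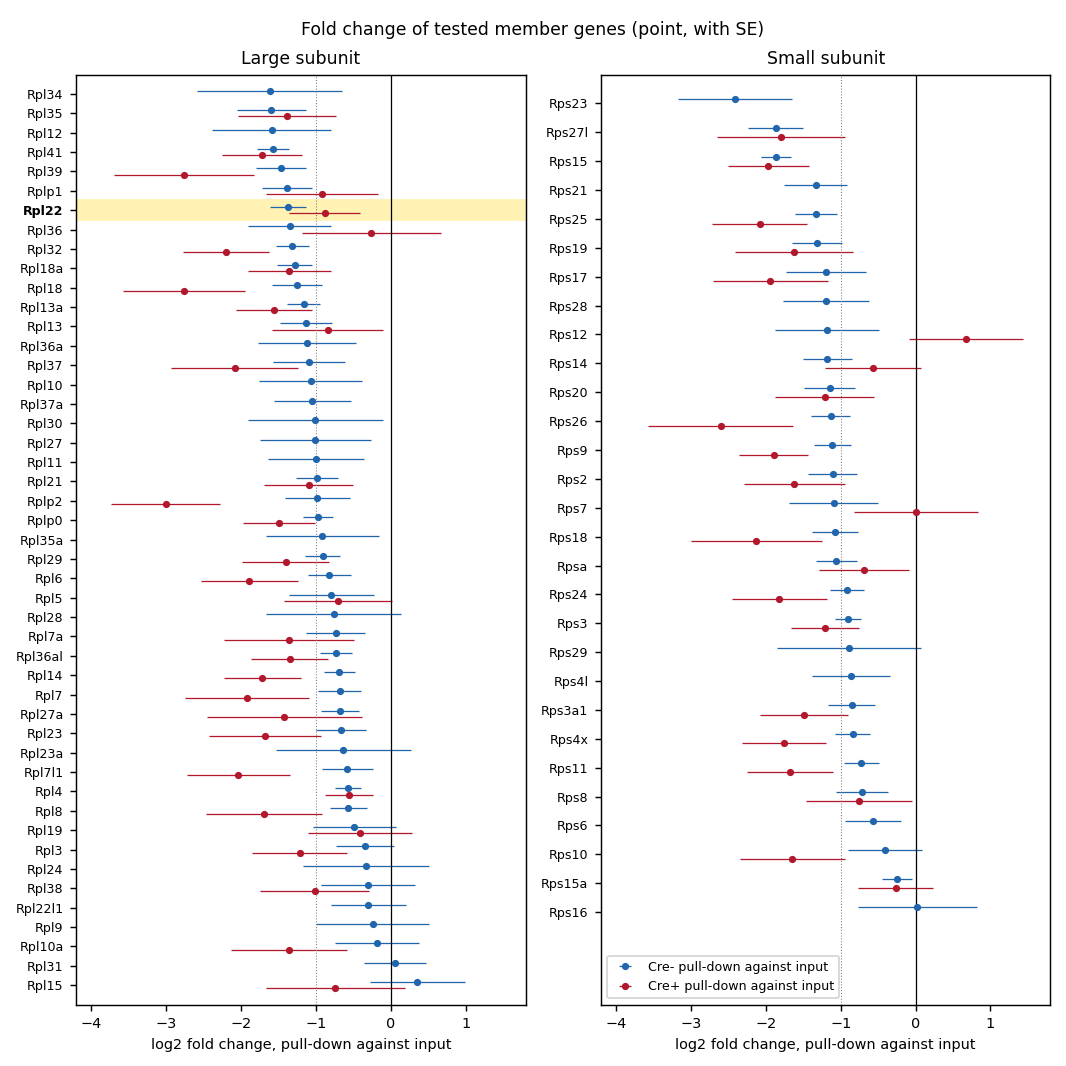
Log2 fold change of pull-down against input (horizontal axis) with its SE for the tested subunit genes, ordered by the value in libraries with the Cre- label (blue) with that in libraries with the Cre+ label (red) where the gene was tested. Almost all points lie left of 0, and Rpl22 (shaded) lies among the others at -1.38 in libraries with the Cre- label and -0.88 in those with the Cre+ label.

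Rpl22, the protein that carries the tag, binds ribosomal RNA on the outer face of the large subunit and is not required for translation as such. Its locus is chr4:152324436-152334082 (GRCm38). In the inputs with the Cre+ label it had 98.0, 44.4 and 51.8 normalized counts (per 1000000) and in the pull-downs 43.4, 26.2 and 35.6. The pull-downs lay below the inputs, the first of them only narrowly. The log2 fold change of -0.88 (SE 0.48, FDR = 0.294, edgeR) did not pass, and without Cre+ input replicate 1 it was -0.46. In the inputs with the Cre- label it had 60.3, 52.7 and 47.9 and in the pull-downs 26.3, 18.0 and 17.6, with no overlap, a log2 fold change of -1.38 (SE 0.24, FDR = 0.00229, edgeR). That call was kept in all 6 fits without 1 library, between -1.57 and -1.26.

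Among the members Rpl22 ranked 43 of 55 from the lowest in libraries with the Cre+ label (41 without Cre+ input replicate 1) and 10 of 78 in those with the Cre- label. As a share of the counts on large subunit genes it made up 3.63%, 3.67% and 4.41% in the inputs with the Cre+ label and 6.79%, 3.48% and 4.17% in the pull-downs. With the Cre- label it made up 3.68%, 4.07% and 3.63% in the inputs and 3.21%, 2.31% and 2.19% in the pull-downs. The pull-downs with the Cre- label lay below their inputs on this scale and those with the Cre+ label overlapped with theirs. More large subunit genes were listed with the Cre- label, so these shares can be compared only within a genotype. The difference between both enrichments was 0.52 (SE 0.52, FDR = 0.600, edgeR), from 0.31 to 0.95 in the 12 fits without 1 library, and did not pass. Between the pull-downs themselves Rpl22 was higher by 0.87 in those with the Cre+ label (SE 0.37, FDR = 0.123, edgeR), which did not pass either. Its paralogue Rpl22l1, whose protein can take the place of Rpl22, was listed only in libraries with the Cre- label, with 3.92, 5.53 and 3.56 normalized counts in the inputs and 3.74, 2.57 and 4.24 in the pull-downs. These groups overlapped, with a log2 fold change of -0.30 (SE 0.50, FDR = 0.729, edgeR).

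Rplp0, Rplp1 and Rplp2 form the stalk of the large subunit, which recruits the elongation factors. Rplp2 had 15.3, 6.26 and 6.79 normalized counts in the inputs with the Cre+ label and 0.666, 1.34 and 1.5 in the pull-downs, which rest on 6, 11 and 13 counts. It was the lowest of the 55 members, with a log2 fold change of -3.00 (SE 0.73, FDR = 0.0659, edgeR), and -2.47 without Cre+ input replicate 1 (FDR = 0.252, edgeR). Under the Cre- label it had 7.35, 7.76 and 5.91 against 3.63, 4.34 and 2.68, again without overlap, and -0.98 did not pass (SE 0.44, FDR = 0.149, edgeR). Rplp0, which anchors the stalk, had 138, 61.8 and 64 against 30.5, 41.3 and 22.1 (log2 -1.49, SE 0.48, FDR = 0.116, edgeR) in libraries with the Cre+ label, and -1.01 without Cre+ input replicate 1. In those with the Cre- label it had 66.2, 63.8 and 63.5 against 28.6, 36.4 and 33.5 (-0.97, SE 0.20, FDR = 0.00563, edgeR), which passed the FDR but not the fold. Rplp1 was called lower only within libraries with the Cre- label (-1.38, SE 0.34, FDR = 0.0149, edgeR), and the difference from its -0.91 in those with the Cre+ label did not pass (0.50, SE 0.81, FDR = 0.767, edgeR). With the Cre+ label Rplp1 had -0.03 without input replicate 1 (FDR = 0.995, edgeR).

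Rps15, Rps18 and Rpl11 code for proteins that the study used as markers of co-precipitated ribosomes. Rps15, at the head of the small subunit, had the lowest FDR of all members in libraries with the Cre- label. It had 183, 82.5 and 70.3 normalized counts in the inputs with the Cre+ label and 41.6, 28.9 and 15.1 in the pull-downs (log2 -1.97, SE 0.54, FDR = 0.0858, edgeR), and -1.42 without Cre+ input replicate 1 (FDR = 0.369, edgeR). With the Cre- label it had 111, 86.6 and 86.3 against 24.7, 27.2 and 25.9 (-1.87, SE 0.20, FDR = 9.61e-05, edgeR). The groups did not overlap in either genotype, and both fold changes differed by -0.07 (SE 0.57, edgeR), or by 0.48 without Cre+ input replicate 1.

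Rps18 was lower by -1.07 in libraries with the Cre- label (SE 0.31, FDR = 0.0314, edgeR), a call lost without Cre- input replicate 1 or Cre- pull-down replicate 2, and had -2.13 in those with the Cre+ label (SE 0.87, FDR = 0.184, edgeR), which was -1.33 without Cre+ input replicate 1. Rpl11, which also binds Mdm2 when ribosome assembly is disturbed, was listed only in libraries with the Cre- label, at 2.55, 2.31 and 2.20 against 1.17, 1.02 and 1.34 (-0.99, SE 0.64, FDR = 0.322, edgeR). The pull-downs did not overlap with the inputs, but these values rest on 15 to 29 counts.

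The other members called in libraries with the Cre+ label had the same pattern in every library. Rpl32, of the large subunit, had 194, 73.3 and 68.5 normalized counts in the inputs and 27.2, 33.4 and 12.2 in the pull-downs (log2 -2.20, SE 0.57, FDR = 0.0761, edgeR). Rps9, at the mRNA entry side of the small subunit, had 135, 63.4 and 63.9 against 21.9, 25.2 and 23.3 (-1.89, SE 0.46, FDR = 0.0666, edgeR). Rpl18 had 34.7, 11.0 and 12.1 against 1.11, 4.02 and 3.35, which rest on 10 to 33 counts (-2.76, SE 0.81, FDR = 0.0999, edgeR). In each of the 3, the input of replicate 1 was the highest library and the pull-downs stayed below the other 2 inputs. Without that input, Rpl32, Rps9 and Rpl18 had -1.55, -1.44 and -2.03, and none of them passed (FDR = 0.352, 0.333 and 0.355, edgeR). Under the Cre- label, Rpl32, Rps9 and Rpl18 were lower by -1.31, -1.11 and -1.25, each of them called. The call of Rps9 was lost there without Cre- input replicate 2 or Cre- pull-down replicate 3.

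**Figure D3:**
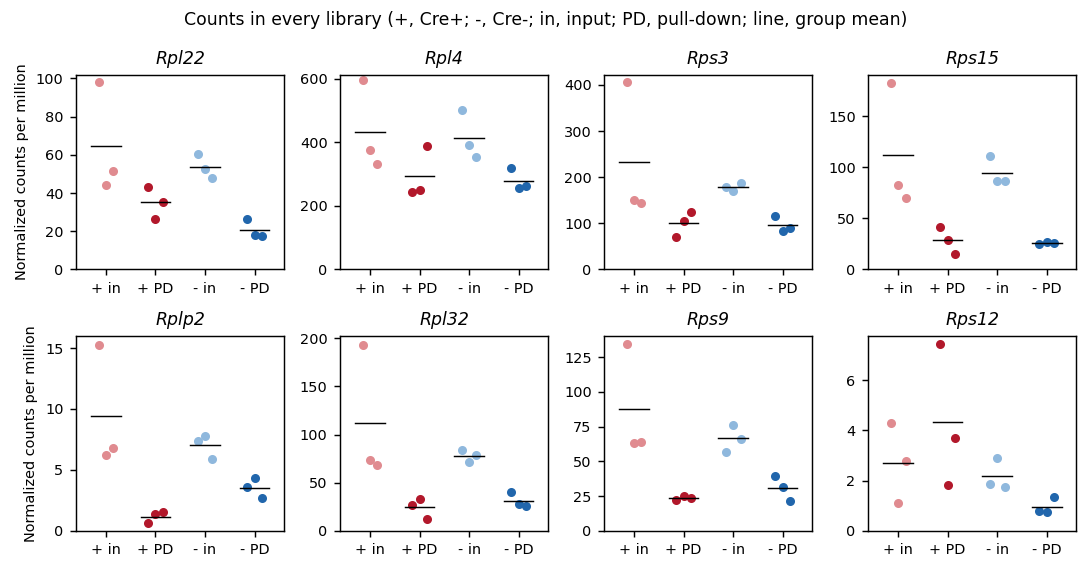
Normalized counts (per 1000000) of 8 members in each of the 12 libraries (points, with the group mean as a line), with in for input, PD for pull-down and + or - for the Cre label. The pull-downs lie below the inputs for Rpl22, Rps3, Rps15, Rplp2, Rpl32 and Rps9 in both genotypes, Rpl4 overlaps in libraries with the Cre+ label, and Rps12 overlaps there with its highest value in a pull-down.

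Rpl41, the smallest ribosomal protein, and Rpl4, one of the largest, had the highest mean FPKM, the authors' value over the 6 libraries of a table and a level per gene length: 293 and 273 in libraries with the Cre+ label, and 188 and 243 in those with the Cre- label. Rpl41 had 146, 99.8 and 110 normalized counts in the inputs with the Cre- label and 33.0, 47.0 and 40.1 in the pull-downs (log2 -1.57, SE 0.21, FDR = 0.000442, edgeR). With the Cre+ label it had 313, 94.0 and 91.5 against 33.1, 59.5 and 58.8 (-1.72, SE 0.54, FDR = 0.108, edgeR), and -0.88 without Cre+ input replicate 1. Rpl4 had 502, 390 and 353 against 318, 255 and 264 in libraries with the Cre- label (-0.57, SE 0.17, FDR = 0.0379, edgeR), under the fold limit. In those with the Cre+ label it had 596, 375 and 331 against 244, 251 and 389 (-0.56, SE 0.32, FDR = 0.315, edgeR), where the third pull-down lay above 2 of the inputs. Without Cre+ input replicate 1 the value was -0.26.

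Members with paralogues are given beside their relatives. Rps27l, a p53-induced relative of Rps27, had 20.5, 16.3 and 19.6 normalized counts in the inputs with the Cre- label against 2.90, 5.69 and 6.85 in the pull-downs (log2 -1.87, SE 0.37, FDR = 0.00501, edgeR), and -1.80 in libraries with the Cre+ label (SE 0.85, FDR = 0.236, edgeR), which was -0.92 without Cre+ input replicate 1. Rps4x and its relative Rps4l had -0.84 (FDR = 0.0292, edgeR, under the fold limit) and -0.87 (FDR = 0.284, edgeR) in libraries with the Cre- label. Rpl36al had -0.73 (FDR = 0.0354, edgeR, under the fold limit) and Rpl36a -1.12 (FDR = 0.271, edgeR) there. For Rpl7 and Rpl7l1, a relative with a role in ribosome assembly, the values were -0.68 and -0.58 in libraries with the Cre- label and -1.92 and -2.03 in those with the Cre+ label, and none of these passed. The last 2 were -1.33 and -2.03 without Cre+ input replicate 1. Rpl39, of the peptide exit tunnel, was lower by -1.46 in libraries with the Cre- label (SE 0.34, FDR = 0.0110, edgeR). Rpl3, next to the peptidyl transferase centre, had -0.35 and Rpl10, one of the last proteins to join the large subunit, -1.07 there, and neither passed. Differences between paralogues were not tested.

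Members with a known role in signalling or in selective translation gave mixed calls. Rpsa, also known as the laminin receptor precursor, had 45.3, 25.8 and 33.7 normalized counts in the inputs with the Cre- label and 18.4, 14.2 and 17.8 in the pull-downs (log2 -1.06, SE 0.28, FDR = 0.0205, edgeR), a call lost without Cre- input replicate 1 or Cre- pull-down replicate 2. Under the Cre+ label it had 61.1, 23.7 and 19.1 against 21.2, 21.9 and 21.4, with overlap (-0.69, FDR = 0.509, edgeR), and 0.00 without Cre+ input replicate 1. Rps6, whose protein is phosphorylated by the S6 kinases, was listed only in libraries with the Cre- label, at 9.21, 7.68 and 10.0 against 7.14, 6.30 and 4.69 (-0.57, SE 0.37, FDR = 0.334, edgeR). Rpl38, which is needed for translation of some Hox mRNAs in the embryo, had -0.30 and -1.02 in libraries with the Cre- and Cre+ labels, and neither passed (-0.52 with the Cre+ label without input replicate 1). Rps27a, which is made as a fusion with ubiquitin, stayed below the FPKM limit.

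Few members departed from the direction of the rest. Rps12, a small subunit protein, had 4.28, 1.10 and 2.78 normalized counts in the inputs with the Cre+ label and 7.44, 1.83 and 3.69 in the pull-downs, which rest on 15 to 67 counts. The groups overlapped, and 0.67 did not pass (SE 0.76, FDR = 0.616, edgeR), nor did 1.15 without Cre+ input replicate 1. With the Cre- label it had 1.86, 2.89 and 1.74 against 0.781, 0.745 and 1.34 (-1.18, SE 0.70, FDR = 0.274, edgeR). Rps7 had 0.01 in libraries with the Cre+ label with pull-downs of 9.77, 1.71 and 1.39, of which the first lay above all inputs, and -1.42 without that library. Rpl15 had the highest value in libraries with the Cre- label, 0.35 (SE 0.64, FDR = 0.755, edgeR), with inputs of 30.4, 15.7 and 30.7 and pull-downs of 7.20, 47.6 and 43.5. Rps15a had -0.26 (-0.03 without Cre+ input replicate 1) and -0.25 in libraries with the Cre+ and Cre- labels, and its reference transcript of 5179 bases was the longest among the members. A reference transcript is the longest annotated form chosen for a gene, and the form present in these cells was not measured. At the other end, Rps23 of the decoding centre had 3.92, 1.24 and 2.96 against 0.502, 0.406 and 0.596 in libraries with the Cre- label (-2.41, SE 0.76, FDR = 0.0462, edgeR), from 6 to 9 counts in each pull-down. That call was lost without Cre- input replicate 1 or 3 or Cre- pull-down replicate 2 (highest FDR = 0.140, edgeR).

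The spread between libraries differed by group, and in the inputs with the Cre+ label it rested on replicate 1. The members' median coefficient of variation was 58.6% in the inputs with the Cre+ label and 16.5% in those with the Cre- label, beside 22.6% and 19.6% over all genes tested. Between Cre+ input replicates 2 and 3 alone it was 6.49%, beside 10.3%. It was 44.4% in the pull-downs with the Cre+ label and 22.1% in those with the Cre- label, beside 53.1% and 22.8%. Single pull-downs with the Cre+ label had isolated low values, such as Rps26 at 0.555, 11.0 and 4.62 normalized counts and Rpl39 at 0.555, 3.17 and 6.58, with 5 counts each in the first. The same genes had 11.3, 11.5 and 13.9, and 5.02, 6.30 and 4.84, in the pull-downs with the Cre- label.

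No member passed the test of a difference in pull-down enrichment between libraries with the Cre+ and Cre- labels (0 of 55 at FDR below 0.1 and a 2-fold change in either direction, edgeR, beside 2.3% of 9006 genes higher and 2% lower). DESeq2 also called none, beside 6.82% of all genes higher and 4.75% lower. Without Cre+ pull-down replicate 2, 2 members were called lower, beside 7.74% of all genes. A missed threshold does not show that the enrichments were alike. At an unadjusted p below 0.05, only Rplp2 was lower, with a difference of -1.99 (SE 0.77, FDR = 0.185, edgeR; -1.46 without Cre+ input replicate 1), beside 8.43% of all genes, and none was higher, beside 11%. The median difference was -0.59, beside 0.13 over all genes, with 41 of 55 members negative, beside 45.3%. Without Cre+ input replicate 1 it was 0.03, with 24 of 55 negative and 0.14 over all genes. The direction of the median thus rests on that library.

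Between the inputs no member was called (edgeR and DESeq2, with none at an unadjusted p below 0.05), nor any of the 9006 genes in edgeR, where 11 were higher (0.122%) and 9 lower (0.0999%) at an unadjusted p below 0.05. In the inputs with the Cre+ label, 53 of 55 members were higher, beside 51.3% of all genes, by a median of 0.47. Without Cre+ input replicate 1 the median was -0.13 and 41 were lower. Between the pull-downs, 2 members were called higher in those with the Cre+ label, beside 10.8% of all genes, and 1 lower, beside 7.12%, and the median was -0.13 beside 0.14. Rps12 was higher by 2.27 (SE 0.67, FDR = 0.0394, edgeR), and every pull-down with the Cre+ label lay above every pull-down with the Cre- label. Rps14, a small subunit protein whose gene is lost in the deletion of the 5q syndrome in man, was higher by 1.38 (SE 0.51, FDR = 0.0860, edgeR), with 30.3, 13.3 and 16.9 against 11.5, 7.05 and 6.33. Rplp2 was lower by -1.49 (SE 0.56, FDR = 0.0916, edgeR). None of the 3 was called in a fit of the 6 pull-downs alone. Of the 12 fits without 1 library, Rps12 was called in 9 (not without Cre+ pull-down replicate 1 or Cre- pull-down replicate 1 or 2), Rps14 in 4 and Rplp2 in 3. Both of the last were kept only without Cre+ input replicate 1 or Cre+ pull-down replicate 2 or 3, and Rps14 also without Cre- pull-down replicate 1.

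Length was shared by the members and was not used to choose them. The median reference transcript was 914 bases long for the 55 members tested in libraries with the Cre+ label and 838 for the 77 with a transcript in those with the Cre- label, beside 3535 and 3152 over all genes tested. Over all genes, longer transcripts had higher fold changes, with a Spearman rho of 0.54 over 8773 genes in libraries with the Cre+ label and 0.36 over 11204 in those with the Cre- label, where all genes share the same libraries. Among the members rho was 0.21 and 0.30. With the Cre+ label and without input replicate 1, rho was 0.46 over all genes and 0.07 among the members. For transcripts under 1000 bases, the median fold change was -1.63 for 34 members and -1.23 for 273 other genes in libraries with the Cre+ label, and -1.08 for 52 members and -0.57 for 575 other genes in those with the Cre- label. Without Cre+ input replicate 1 the former pair of medians was -0.91 and -0.81.

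Set against the mean log2 level of the inputs, each pull-down could be read alone, here for transcripts under 1000 bases on both sides. The 52 short members had medians of -0.79, -0.98 and -0.95 in the pull-downs with the Cre- label, and the 575 other short genes -0.56, -0.56 and -0.39. The 34 short members had -1.34, -1.32 and -1.58 in the pull-downs with the Cre+ label, and the 273 other short genes -1.53, -1.26 and -1.31. When Cre+ input replicate 1 was left out, these were -0.87, -0.83 and -1.16 for the members and -1.17, -0.85 and -0.86 for the others. The members' median was the lower in each pull-down with the Cre- label. With the Cre+ label the order differed between the pull-downs. How far length accounts for the members' fold changes was not tested.

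**Figure D4:**
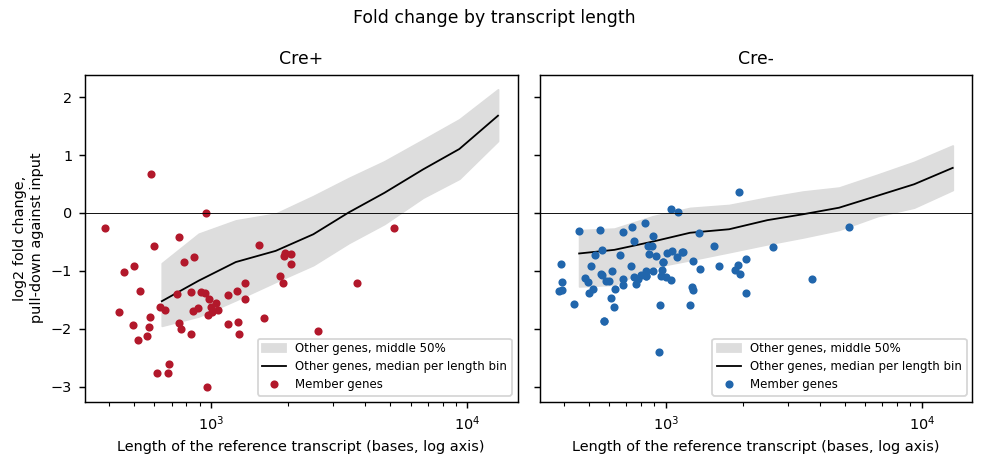
Log2 fold change of pull-down against input by length of the reference transcript (log axis), for the members (points) and for all other genes as the median (line) and middle 50% (grey) per length bin of at least 20 genes. The line rises with length in both panels, and most members lie at short lengths below the line for libraries with the Cre- label.

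Ribosomal protein genes have many processed pseudogenes, and the authors kept uniquely mapped reads only. A median of 52.3% of the 50-base stretches of a member's transcript was also present in a transcript of another gene in the GENCODE annotation, for the 77 members tested in libraries with the Cre- label that have a transcript, beside 0 over all genes tested. The share ran from 0 for Rps19bp1 and 2.96% for Rps3 to 95.1% for Rpl35. Members with less unique sequence had a lower mean FPKM in the table of libraries with the Cre- label: the median was 29.2 for 12 members with under 25% shared, 16 for 47 members from 25% to 75% and 3.95 for 21 members with 75% or more. Spearman's rho was -0.44 over 80 members, which share the same libraries. Rpl24 had 1.01 FPKM with 81.7% shared, Rps18 had 29.2 with 86.7% shared, and Rpl41 was among the highest with 53.1% shared. Whether a level misses reads from shared sequence was not tested, and the order of levels is uncertain. Exons of Rpl36al, Rps10, Rpl35, Rpl24, Rpl13a, Rpl23a, Rpl30, Rpl31, Rps25 and Rpl5 overlap with other annotated genes over 40.0% to 71.5% of the transcript, and their counts are uncertain for that reason. Rpl22, Rpl4, Rps3, Rps15 and Rplp2 have no such overlap.

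**Figure D5:**
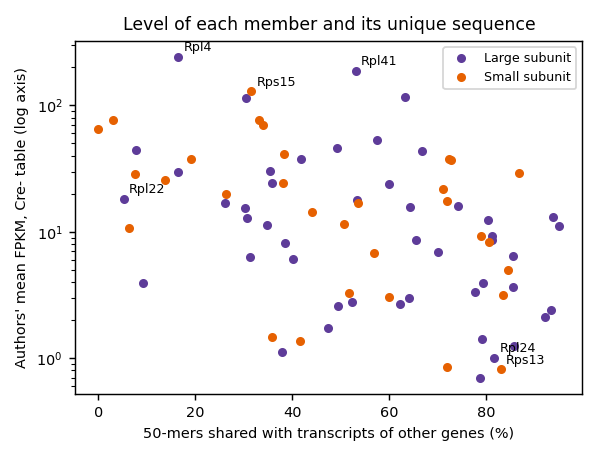
Authors' mean FPKM of each member in the table of libraries with the Cre- label (log axis) against the percentage of its 50-base stretches shared with transcripts of other genes. Members with 75% or more shared sequence have a median of 3.95 FPKM and those under 25% a median of 29.2.

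Other lists of genes of protein synthesis had medians nearer to 0. Their calls stand beside the 4.72% higher and 2.19% lower of all genes with the Cre+ label, and 6.01% and 5.83% with the Cre- label. Of 18 other mRNAs known to start with a TOP tract, 1 was called higher and 1 lower in libraries with the Cre+ label (median -0.74, 11 of 18 negative), and none higher and 3 lower in those with the Cre- label (median -0.39, 13 of 18 negative). Eef1a1, the elongation factor that brings aminoacyl-tRNA to the ribosome, was lower by -1.06 with the Cre+ label (SE 0.27, FDR = 0.0723, edgeR) and by -1.12 with the Cre- label (SE 0.18, FDR = 0.00121, edgeR). Without Cre+ input replicate 1 the first was -0.84 and did not pass (FDR = 0.274, edgeR). Eif3a, a subunit of an initiation factor, was the gene called higher with the Cre+ label (1.09, SE 0.29, FDR = 0.0819, edgeR), and it had 0.94 without Cre+ input replicate 1, which did not pass (FDR = 0.307, edgeR). Pabpc1, the poly(A)-binding protein, was lower by -1.15 in libraries with the Cre- label (SE 0.16, FDR = 0.000660, edgeR) and had 0.19 in those with the Cre+ label, and both fold changes differed by 1.37 (SE 0.33, FDR = 0.0660, edgeR). That difference was 1.21 and did not pass without Cre+ input replicate 1 (FDR = 0.142, edgeR). Gnb2l1, the gene of the small subunit protein Rack1 that the symbol rule leaves out, had -0.89 (-0.45 without Cre+ input replicate 1) and -0.56 in libraries with the Cre+ and Cre- labels, and neither passed. Ribosome assembly factors had medians of -0.06 (21 tested, 1 lower) and -0.10 (26 tested, 1 higher). For S6 kinases the medians were 0.09 (8 tested, none called) and 0.30 (10 tested, 2 higher), and for regulators of TOP translation 0.38 (7 tested, none called) and 0.15 (8 tested, 1 lower). Of the 8 regulators with the Cre- label, 4 were negative, and Eif4ebp1 was the 1 called. Larp1 (0.53), Larp4 (0.58) and Mtor (0.77) were higher there under the fold limit (FDR = 0.0475, 0.0209 and 0.00888, edgeR). Eif4ebp2 was lower under that limit (-0.98, FDR = 0.0530, edgeR). With the Cre+ label and without input replicate 1, no gene of these lists was called, and the medians were -0.40 for the other TOP mRNAs, -0.07 for assembly factors, 0.08 for S6 kinases and 0.26 for regulators.

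Markers of glia were lower in the pull-downs, and other marker lists differed between genotypes. Satellite glia and Schwann cell markers, of which 6 of 9 were listed for libraries with the Cre+ label and 9 of 9 for those with the Cre- label, summed to 2412 to 3704 normalized counts in the inputs with the Cre+ label and 1641 to 2267 in the pull-downs. Under the Cre- label they summed to 2777 to 4292 in the inputs and 1263 to 1672 in the pull-downs. Endothelial markers (3 of 4 listed, Cldn5 absent) went the other way with the Cre+ label, at 46.1 to 82.3 in the inputs and 96.6 to 381 in the pull-downs, and overlapped with the Cre- label (58.5 to 88.1 and 15.3 to 113). Fibroblast markers overlapped with the Cre+ label (4 of 6 listed, 61.5 to 95.4 and 66.8 to 76.5) and with the Cre- label (6 of 6, 77.6 to 95.9 and 25.2 to 89.8). Macrophage markers overlapped as well (2 of 6, 25.8 to 68.2 and 4.85 to 112, and 4 of 6, 39.7 to 119 and 29.7 to 58.6). Pan-neuronal markers summed to 21589 to 28743 in the inputs and 21119 to 23987 in the pull-downs with the Cre+ label. They were higher in the pull-downs with the Cre- label, at 47536 to 55094 against 24813 to 29503. Proprioceptor markers were higher in the pull-downs of both genotypes. They summed to 1228 to 1342 in the inputs and 1665 to 2415 in the pull-downs with the Cre+ label (6 of 7 listed, Pvalb absent), and to 1415 to 1611 and 4330 to 4805 with the Cre- label (7 of 7). Markers of other sensory neurons overlapped with the Cre+ label (9 of 10 listed, 3031 to 3194 and 2324 to 3240) and were lower in the pull-downs with the Cre- label (10 of 10, 2854 to 3177 and 1535 to 2065). The part of these cells in the members' fold changes was not tested. Counts on Rn45s, the ribosomal RNA precursor, took 5.70% to 8.53% of the inputs and 2.80% to 4.38% of the pull-downs, with the highest share in Cre+ input replicate 1. Fewer cells of a type and less RNA per cell cannot be told apart in these libraries.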

How the data were processed

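RNA-seq counts, mean FPKM values and comparison columns were deposited for 12 libraries in 2 tables. The authors aligned reads to mm10 with STAR and counted uniquely mapped fragments per RefSeq gene with HTSeq, so the deposited counts are not normalized. The FPKM used is the mean over 6 libraries that the authors deposited. The authors also deposited 18 columns of scaled counts and ratios per sample and 6 columns of fold changes and p-values, and none of them was used. Apart from punctuation, the column names for the libraries labelled Cre+ also resemble titles of the libraries labelled Cre-. They were therefore tied to the Cre+ group as a whole and to no single sample.

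Tests were run on genes whose mean FPKM exceeded 1, in edgeR 4.0.16 (TMM scaling, quasi-likelihood test with robust estimation, two-sided, Benjamini-Hochberg over all genes tested) within each table, and differences between genotypes in 1 fit of all 12 libraries over 9006 genes. A call needed an FDR below 0.1 and a 2-fold change. Robust estimation was chosen after seeing that it gave the counts of calls over all genes found earlier for this series. Normalized counts are counts per 1000000 of the scaled library, computed within each table, and the 2 tables list different numbers of genes. SEs were derived from the test statistic. P-values measure the spread between 3 libraries a group. On simulated data, with 200 of 8947 genes changed by a log2 value of 2 to 3 in the libraries labelled Cre+, 200 were recovered with 4 false calls. The same simulation recovered 200 with 4 false calls among 11526 genes for the libraries labelled Cre-, and 200 with 25 false calls among 9006 genes for the difference. It gave every gene the same fixed spread and changed only genes with higher mean counts. Its changes were also larger than the members' median of -1.49 in the libraries labelled Cre+. It checks the steps of the test and does not give the power for the members.

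Alternatives were DESeq2 1.42.0, the exact test, other scalings, filters and limits, a replicate block, 1 fit of all libraries and each library left out. Reference transcripts are from GENCODE M21 and start sites and positions from RefSeq, both on GRCm38, and 80 members had a transcript. For each gene the longest transcript linked to a RefSeq mRNA was taken, or the longest of all where none was linked. Log2 levels of single libraries used a pseudocount of 0.5 per 1000000. Members, lists and the rule for naming members were chosen with earlier results of these data known. Named are Rpl22 and its paralogue, the stalk genes, paralogue pairs, members used as protein markers, 4 members with roles in signalling or translation, the 5 highest and lowest members in each genotype, members called (at most 10 a comparison) and the 5 with the highest FPKM. Rps3, Rpl14 and the members with overlapping exons were named after their values were seen. Shared 50-base stretches compare 1 transcript a gene, for members at every position. The study gives the age of the mice differently from the labels. Values of 1 member are not reported here.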

Additional observations from a re-analysis of the deposited data

How the results depend on the processing

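The count of members lower in the pull-down labelled Cre+ (5) was the least stable: 0 at an FDR of 0.05 (0.291% of all genes lower, against 2.19%), 23 with DESeq2 (6.35%), 20 with scaling by library size alone (7.81%), 19 with the exact test (5.11%), 35 with all 12 libraries in one fit (10.6%) and 6 without robust estimation (2.49%, added after the values were seen). It ranged from 0 to 12 with 1 library left out (0 to 6.04% of all genes), and the median from -1.72 to -0.90. In the libraries labelled Cre- the count (24) was 37 with no fold limit (11.1% of all genes lower, against 5.83%), 38 with library size alone (10.7%), 3 with all 12 libraries in one fit (of 55 members tested, 1.92%), and 18 to 27 with 1 library left out (4.55% to 9.2%). The median there was -1.22 with library size alone and -1.02 to -0.91 with 1 library left out. Library size alone moved the median of all genes to -0.36 and -0.27 in the libraries labelled Cre+ and Cre-.

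The median difference between genotypes ranged from -0.82 to 0.03 with 1 library left out, turning sign without Cre+ input replicate 1 (0.0267), and 0 to 2 members were called lower (0.333% to 7.74% of all genes). Between pull-downs, the 2 higher members (10.8% of all genes) became 1 at an FDR of 0.05 (6.86%), 4 with DESeq2 (14.5%), 1 with upper-quartile scaling (6.97%), 1 with library size alone (6.13%), 0 in the fit of 6 libraries (1.34%) and 0 to 5 with 1 library left out (4.13% to 15.6%). The 1 lower member (7.12%) became 0 at an FDR of 0.05 (4.73%), 0 in the fit of 6 (1.47%) and 0 to 5 with 1 library left out (3.59% to 12.2%). Without the 5 members with the highest counts, the mean shares were 0.204% and 0.0577% in the inputs and pull-downs labelled Cre+, and 0.157% and 0.0694% in those labelled Cre-.

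Some members changed sign in a genotype in which they were not called. In the libraries labelled Cre+, Rps7 (0.01) was -0.28 with upper-quartile scaling, -0.51 with library size alone, -0.004 with scaling factors from genes other than the members and -0.0012 in the fit of 12. In the libraries labelled Cre-, Rps16 (0.02) was -0.0061 with upper-quartile scaling, -0.19 with library size alone and -0.0522 with the replicate block, and Rpl31 (0.06) was -0.18 with library size alone. With 1 library left out, values in the libraries labelled Cre+ ranged from -1.42 to 0.44 for Rps7, -0.98 to 0.0044 for Rpsa, -0.68 to 0.26 for Rpl19, -0.87 to 0.005 for Rps15a, -1.77 to 0.56 for Rpl36, -1.31 to 0.91 for Rpl15 and -0.95 to 0.0662 for Rps14. In the libraries labelled Cre- they ranged from -0.53 to 0.16 for Rpl38, -1.42 to 0.12 for Rpl9, -0.40 to 0.29 for Rps16, -0.13 to 0.28 for Rpl31 and -0.0142 to 0.85 for Rpl15. The cause was not tested in any of these cases.

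Libraries labelled Cre- with the same number had correlated deviations of 0.07, 0.03 and 0.13, of which 2 were not over 0.1, and the labels do not say what a number marks, so they were taken to share only a number. That each correlated best with its own number is a hint from the data. With the replicate block, 24 members were lower (6.87% of all genes) and 0 higher (6.11%), the median was -1.03 and Rpl22 had -1.40 (FDR = 0.00261, edgeR). No replicate block was fitted for the libraries labelled Cre+ or for the difference, since the numbers in the Cre+ column names were not tied to samples. Whether a block on those numbers would change the calls was not tested.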
